A study of Mus musculus with 4 samples.

Results

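The genes described here make short-chain acyl-CoAs, pass acyl groups to glycine, water or carnitine, or bring carnitine into cells, in mouse liver. They are Acss1, Acss2, Acss3, Acsm1, Acsm3, Acsm5, Glyat, Acot12, Crat and Slc22a5. Their members among the peaks were taken by position alone, as every peak of open chromatin inside one of the 10 genes or within 50 kb of either end, in RefSeq coordinates of GRCm38 (mm10). Overlapping or touching peaks of the libraries were joined into regions, which gave 53 regions at these genes of 38853 in the whole series. No region fell in the windows of more than 1 of the 10 genes. The farthest region inside the limit lay 47924 bp from Crat, and the nearest one beyond it lay 57603 bp from Acss2. Open chromatin was mapped by ATAC-seq (a transposase, Tn5, inserts sequencing adaptors where DNA is accessible) on 20 mg of frozen liver per library with the Omni-ATAC protocol. There were 2 libraries from PA mice and 2 from WT mice, called biological replicates by the submitters. All were females aged 11 weeks, of FVB background and on standard chow. PA mice are described in the labels as hypomorphic Pcca-/- (A138T), and the others as WT. The sources used here do not say whether tissue of several animals was pooled.

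Pcca encodes a subunit of propionyl-CoA carboxylase, the mitochondrial enzyme that carries propionyl-CoA towards succinyl-CoA, and its loss causes propionic acidemia. When propionyl-CoA is not cleared, the acyl group is known to leave the cell as propionylglycine and as propionylcarnitine, so that glycine conjugation, carnitine acetyltransferase and carnitine uptake are routes of disposal. Short-chain acyl-CoA synthetases work in the other direction and activate free acetate, propionate or butyrate arriving at the liver, and thioesterases return acyl-CoA to the free acid.

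Each library is represented by a list of peak positions with no height, so a region is either called or not called in a library and how open it was is unknown. Read depth is unknown as well, and a library with more reads can reach a caller's threshold at more places. The lists held 25683 peaks in PA 1 and 29765 in PA 2, against 26280 in WT 1 and 25941 in WT 2. Pcca held 9 regions, 4 of them called in all 4 libraries, and none was restricted to a genotype. The targeted gene thus gave no check of the labels, and peak positions do not show the sequence of an allele in any case.

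The regions of the 10 genes were for the larger part called in every library of both genotypes. Of their 53 regions, 28 (52.8%) were called in all 4 libraries, where the share over all regions was 45.3%. Another 8 were called in 3 libraries, 7 in 2 and 10 in 1. The 10 called in a single library made up 18.9%, against 26.8% of all regions. Every one of the 10 genes had at least 1 region called in all 4 libraries in its window, whereas 25.4% of all protein-coding genes had none. At Acss1, Acsm5 and Glyat such regions were nearest to a neighbouring gene, and 12 of the 28 had a member as the nearest gene. The median number of regions per window was 6 for these genes and 4 for all 21631 protein-coding genes. Windows differ in length with the gene, and per 100 kb of window the medians were 4.14 and 2.61. Crat and Acss3 had the most with 7 each, and Acss1 the fewest with 1. Regions called in all 4 libraries numbered 6 at Crat, 4 each at Acsm3, Acot12 and Slc22a5, and 1 each at Acss1, Acsm1 and Acsm5.

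**Figure D1:**
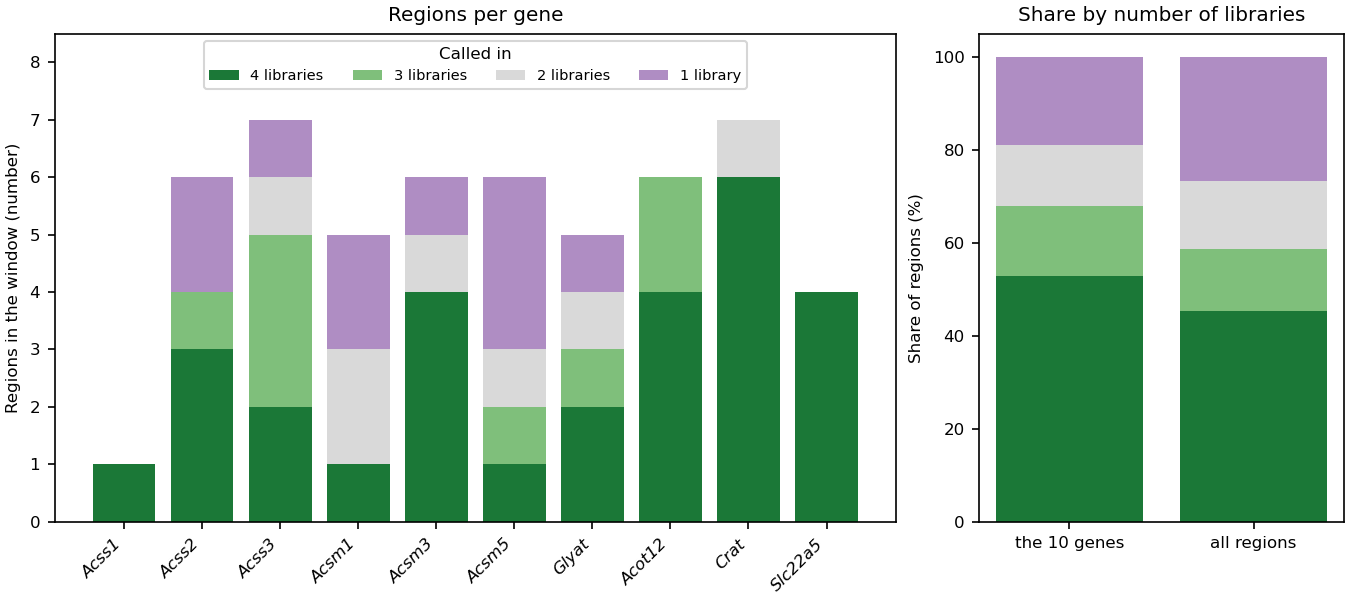
Left, number of regions inside or within 50 kb of each gene, stacked by the number of libraries in which the region was called; right, the same as a share of regions (%) for the 10 genes together and for all regions of the series. All 4 regions of Slc22a5 and 6 of the 7 of Crat were called in every library, while Acsm5 and Acsm1 had 1 such region each.

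Set side by side, the genotypes differed at these genes by less than the PA libraries differed from each other. The 53 regions were called 38 times in PA 1 and 47 times in PA 2, against 39 times in WT 1 and 36 times in WT 2. PA 2 stood above the other libraries and PA 1 lay between the WT libraries, so the groups overlapped. The mean was 42.5 ± 6.36 in PA and 37.5 ± 2.12 in WT (SD, n = 2 each), a difference of 5 that did not pass an exact permutation test over the libraries (two-sided, p = 0.667, where 0.333 is the smallest p possible). PA 2 also had the longest list. As a share of each library's own list, the peaks of the 10 genes made up 0.148% in PA 1 and 0.158% in PA 2, against 0.148% in WT 1 and 0.139% in WT 2. Without PA 2 the difference in regions per library was 0.5, and with every list held to the length of the shortest it was 1.5.

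A single region was shared by PA 1 and PA 2 and absent from WT 1 and WT 2. That is 1 of 53, where 3.38% of all regions were PA-only. Not one of the 53 was called in both WT libraries alone, where 1.98% of all regions were. Counted by gene, 1 of the 10 had a PA-only region in its window against 9.73% of protein-coding genes, and 0 had a WT-only region against 6.58%. With so few regions these counts lie near the series as a whole. Calls in a single library were uneven between libraries and within the PA group. Of the 10 regions called once, 2 belonged to PA 1 and 7 to PA 2, against 0 to WT 1 and 1 to WT 2. Over the whole series, of 10412 regions called once, 2731 belonged to PA 1 and 3692 to PA 2, against 2293 to WT 1 and 1696 to WT 2. Of the 8 regions missing from 1 library, 2 were missing from PA 1 and 2 from PA 2, against 0 from WT 1 and 4 from WT 2. Over the whole series 43.1% of such regions were missing from PA 1 and 9.82% from PA 2, against 26.1% from WT 1 and 21.0% from WT 2.

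**Figure D2:**
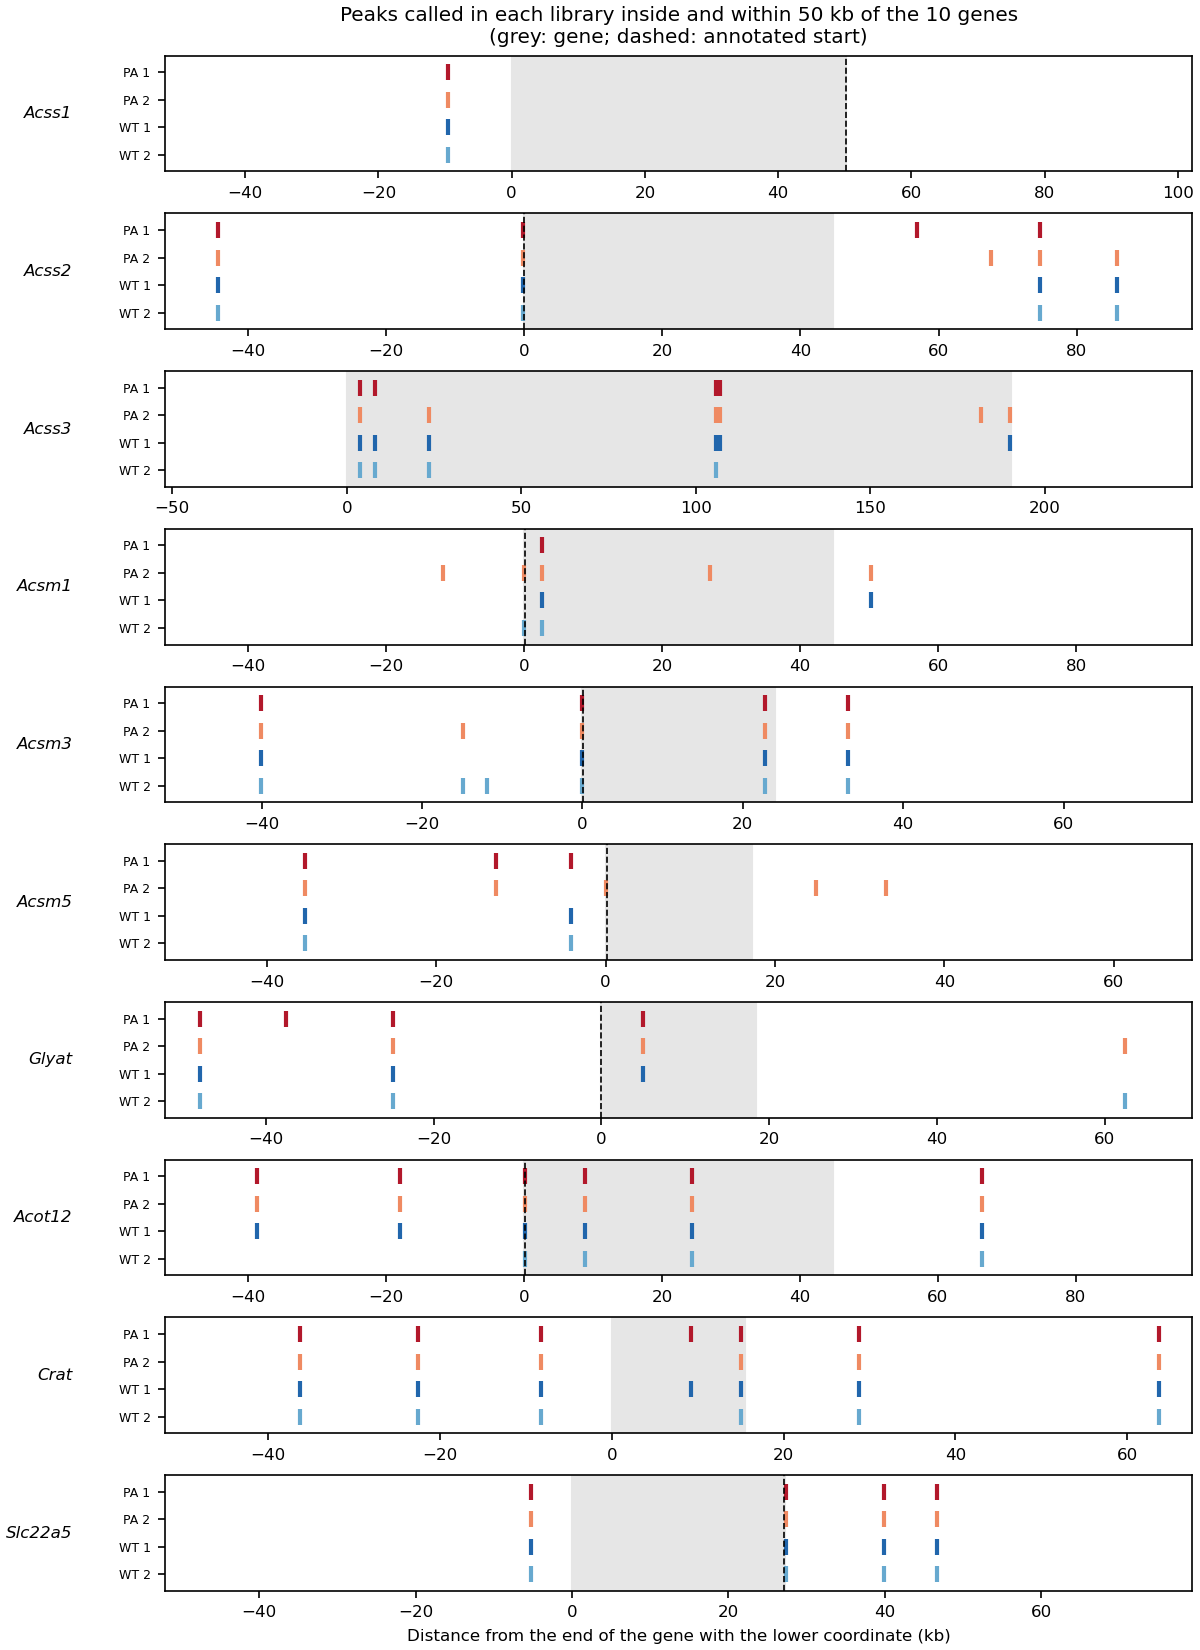
Position of the centre of each joined region relative to the end of the gene with the lower coordinate (kb), with 1 panel per gene and 1 row per library. A mark stands in the row of each library that called the region, at the same position in every row. Grey marks the gene and the dashed line its annotated transcription start where the table used gives one. Columns of 4 marks are regions called in every library, as at the starts of Acss2, Acsm3, Acot12 and Slc22a5, while the only column with marks in both PA rows and no WT row is the one left of Acsm5 at 12.9 kb from the gene.

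The genes differed from one another at their transcription starts. A RefSeq promoter, from 250 bases before the start to 50 bases after it, was matched for 8 of the 10 genes; the 2 others are Acss3 and Crat. A peak lay over the start in all 4 libraries for Slc22a5, Acss2, Acot12 and Acsm3, which is 4 of 8 against 30.7% of the 21045 promoters of protein-coding genes. At Acsm1 the start was under a peak in PA 2 and WT 2, and at Acsm5 in PA 2. The starts of Acss1 and Glyat were under a peak in no library, as were 58.1% of promoters. No start among the 8 was PA-only or WT-only, where 0.694% and 0.565% of promoters were. Within 1 kb of either gene end the count was 5 of 10 genes in all 4 libraries, with Crat added, against 41.3% of protein-coding genes. By that measure 5 genes were called in PA 1 and 8 in PA 2, against 6 each in WT 1 and WT 2. Over all protein-coding genes the share was 46.3% in PA 1 and 47.0% in PA 2, against 46.2% in WT 1 and 46.4% in WT 2. None of the 10 was PA-only or WT-only there, against 0.661% and 0.476% of protein-coding genes.

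Shown next are the promoters under a peak in every library, then those whose calls differed between libraries, and last that of Acss1, added after its calls were seen because it is rich in CpG and had no peak. All are from RefSeq on GRCm38.p6, read 5′ to 3′ on the strand of the gene, and the transcription start is the first of the last 50 bases. Capitals mark matches on either strand to 5 of the motifs searched: the GC box (GGGCGG), the CCAAT box (CCAAT), the E-box (CACGTG), a FOXA core (TGTTTAC) and a C/EBP site (TTGCNNAA).
Slc22a5: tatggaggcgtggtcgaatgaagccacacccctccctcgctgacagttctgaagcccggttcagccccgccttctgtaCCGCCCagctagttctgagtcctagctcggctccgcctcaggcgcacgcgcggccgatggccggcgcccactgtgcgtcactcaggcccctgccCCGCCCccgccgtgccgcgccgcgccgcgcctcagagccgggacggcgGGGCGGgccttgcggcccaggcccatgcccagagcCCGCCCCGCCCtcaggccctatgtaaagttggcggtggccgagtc
Acss2: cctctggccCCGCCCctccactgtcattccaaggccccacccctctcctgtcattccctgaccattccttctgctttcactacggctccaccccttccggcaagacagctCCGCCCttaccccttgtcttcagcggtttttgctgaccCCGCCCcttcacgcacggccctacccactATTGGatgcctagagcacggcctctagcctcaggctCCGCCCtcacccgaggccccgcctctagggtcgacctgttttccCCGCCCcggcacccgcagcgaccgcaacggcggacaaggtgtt
Acot12: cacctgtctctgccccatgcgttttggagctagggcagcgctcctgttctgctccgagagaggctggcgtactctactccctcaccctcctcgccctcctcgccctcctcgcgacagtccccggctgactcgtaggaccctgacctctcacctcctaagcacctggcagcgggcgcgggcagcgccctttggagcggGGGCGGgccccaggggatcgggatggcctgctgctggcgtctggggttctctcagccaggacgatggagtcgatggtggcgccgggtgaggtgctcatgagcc
Acsm3: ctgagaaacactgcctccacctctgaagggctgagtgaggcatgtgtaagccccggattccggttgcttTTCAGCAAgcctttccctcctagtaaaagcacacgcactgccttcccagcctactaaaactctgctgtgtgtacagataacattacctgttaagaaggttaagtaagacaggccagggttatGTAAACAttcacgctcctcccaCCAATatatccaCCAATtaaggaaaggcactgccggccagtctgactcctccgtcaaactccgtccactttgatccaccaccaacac
Acsm1: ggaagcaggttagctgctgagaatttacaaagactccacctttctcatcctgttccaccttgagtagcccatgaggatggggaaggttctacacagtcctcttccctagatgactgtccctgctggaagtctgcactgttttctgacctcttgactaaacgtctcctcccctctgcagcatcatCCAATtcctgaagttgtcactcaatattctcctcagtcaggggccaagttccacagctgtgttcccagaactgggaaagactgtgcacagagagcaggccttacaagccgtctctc
Acsm5: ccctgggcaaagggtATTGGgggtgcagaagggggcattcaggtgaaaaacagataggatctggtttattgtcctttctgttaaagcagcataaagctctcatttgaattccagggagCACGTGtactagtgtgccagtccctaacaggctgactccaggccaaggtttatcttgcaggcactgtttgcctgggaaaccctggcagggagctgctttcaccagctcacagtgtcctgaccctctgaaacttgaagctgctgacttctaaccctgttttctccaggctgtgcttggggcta
Acss1: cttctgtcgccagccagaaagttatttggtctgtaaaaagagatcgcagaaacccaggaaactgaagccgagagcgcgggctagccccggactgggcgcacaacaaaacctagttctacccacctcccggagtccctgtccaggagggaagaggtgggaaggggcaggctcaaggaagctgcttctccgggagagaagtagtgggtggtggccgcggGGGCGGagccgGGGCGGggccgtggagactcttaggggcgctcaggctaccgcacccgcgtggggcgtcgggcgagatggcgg

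The promoters under a peak in all 4 libraries were of more than 1 kind. Slc22a5 (chr11:53891654-53891953, minus strand), Acss2 (chr2:155517793-155518092, plus strand) and Acot12 (chr13:91741271-91741570, plus strand) hold 34, 20 and 22 CpG dinucleotides in 300 bases. Their matches are GC boxes, 5 each in Slc22a5 and Acss2 and 1 in Acot12, with a CCAAT box in Acss2; the last pair of GC boxes in Slc22a5 overlap by 1 base. A GC box stands in 46.7% of all promoters and in 72.9% of those called in all 4 libraries. Acsm3 (chr7:119760673-119760972, plus strand) has 7 CpG and no GC box. It has instead 2 CCAAT boxes, a motif found in 38.5% of promoters, 1 C/EBP match (10.3% of promoters) and 1 FOXA match (3.03% of promoters). Of promoters called in all 4 libraries, 44.3% had a CCAAT box, 7.65% a C/EBP match and 2.30% a FOXA match. So the C/EBP and FOXA matches were rarer there than among all promoters. The motifs named are matches of letters in these windows, and binding was not measured.

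Acsm1 (chr7:119617562-119617861, plus strand) and Acsm5 (chr7:119526015-119526314, plus strand), called in some libraries only, hold 2 and 1 CpG. Each has 1 CCAAT match, and Acsm5 also has an E-box, present in 7.91% of promoters and a palindrome that matches on both strands. Glyat (chr19:12633058-12633357, plus strand), with no peak over its start, has 1 CpG and 1 match to an HNF4 site (CAAAGNNCA, in 5.80% of promoters). No member promoter had a TATA box (TATAAA, in 12.7% of promoters), a sterol response element core (TCACNCCAC, in 1.20%) or the HNF1 palindrome (in 1 of 21045).

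Acss1 (chr2:150668191-150668490, minus strand) departs from the other CpG-rich members. Its promoter has 23 CpG, a GC content of 64.3% and 2 GC boxes, close to Acss2 with 20 CpG and 65.0% GC, yet no library had a peak over it. Of the 4357 promoters with 20 to 29 CpG, 56.4% were called in all 4 libraries and 28.8% in none. In contrast, of the 3147 promoters with 5 to 9 CpG, the class of Acsm3, 10.8% were called in all 4 libraries and 80.3% in none. With 0 to 4 CpG, the class of Acsm1, Acsm5 and Glyat, 3.19% were called in all 4 libraries.

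**Figure D3:**
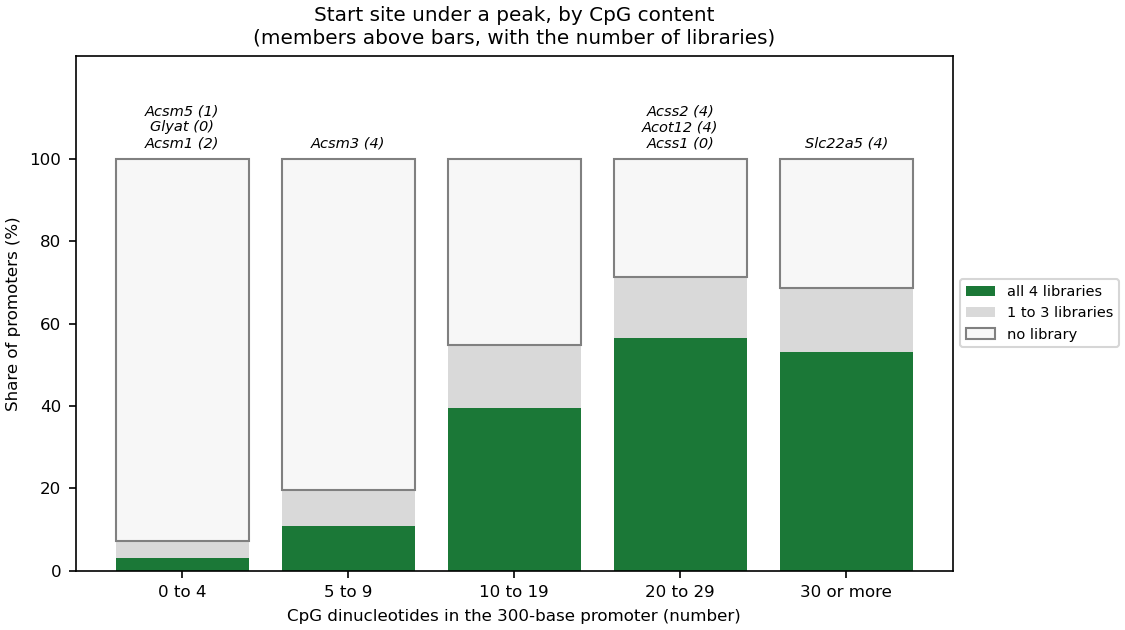
Share of protein-coding promoters (%) whose start lay under a peak in all 4 libraries, in 1 to 3 or in none, by the number of CpG dinucleotides in 300 bases; members are named above their class with the number of libraries in brackets. Acss1, with 0 libraries, stands in the class where 56.4% of promoters were called in all 4, and Acsm3, with 4, in the class where 10.8% were.

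Among the acyl-CoA synthetases that use acetate or propionate, Acss2 was open at its start in every library. Acss2 makes acetyl-CoA in the cytosol and nucleus. The region over its start (chr2:155517707-155518112) was centred 134 bp upstream. Each list also has an order, whose basis the sources used here do not give, and place is given below as the percentage of lines down a library's own list. The Acss2 start peak stood 9.15% down in PA 1 and 2.75% in PA 2, against 5.38% in WT 1 and 4.07% in WT 2. Its centres in the 4 libraries lay within 6 bp of each other. The other 5 regions of the window were nearer to other genes. One overlapped an end of Ncoa6 and another the start of Gss, the gene of glutathione synthetase, and both were called in all 4 libraries. The Ncoa6 region was 851 bp long with centres up to 451 bp apart, so its peaks did not all overlap one another.

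Acss1, the mitochondrial acetyl-CoA synthetase, had no peak inside the gene (chr2:150618111-150668240) or within 1 kb of it in any library. Its window held 1 region, over the start of the neighbouring gene Apmap (chr2:150608393-150608793), called in all 4 libraries with centres 1 bp apart.

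Acss3, a mitochondrial synthetase reported to favour propionate, is the longest of the 10 genes, and 6 of its 7 regions lay inside it, with the other over a gene end. Those called in all 4 libraries were chr10:106936979-106937453 and chr10:107039147-107039604. The second stood 18.1% down the list in PA 1 and 7.96% in PA 2, against 8.26% in WT 1 and 13.7% in WT 2. It lay 84157 bp from the nearer gene end. A close neighbour at chr10:107040413-107040813 was called in every library but WT 2. At the end of the gene with the higher coordinate, chr10:107123477-107123973 was called in PA 2 and WT 1, at 28.6% and 36.1% of their lists. This difference thus ran within both genotypes rather than between them.

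The Acsm genes encode mitochondrial synthetases that activate butyrate and medium-chain acids, some of them for glycine conjugation, and Acsm1, Acsm3 and Acsm5 lie in a cluster on chromosome 7 with Acsm2 and Acsm4. They are related copies, and the sources used here do not say how reads matching several of them were placed. Acsm3 was the member of the cluster with a start called in all 4 libraries (chr7:119760686-119761092, centred 34 bp upstream). It stood 56.2% down the list in PA 1 and 36.4% in PA 2, against 47.0% in WT 1 and 38.0% in WT 2, so it ranked lower in the lists than the other 3 starts called throughout. Its centres nevertheless lay within 7 bp. A second Acsm3 region near the other end of the gene (chr7:119783407-119783825) stood higher, between 12.5% and 22.9% in the 4 lists, and lay 1 bp from the end of Eri2.

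Over the start of Acsm1, chr7:119617567-119617988 was called in PA 2 at 39.1% and in WT 2 at 40.4% of the lists, and in neither PA 1 nor WT 1. The region of Acsm1 called in all 4 libraries lay inside the gene (chr7:119620135-119620583), 2547 bp downstream of the start. It stood 32.9% down in PA 1 and 28.1% in PA 2, against 45.1% in WT 1 and 35.8% in WT 2. Acsm2 and Acsm4 had no peak within 1 kb of an end in any library.

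Acsm5 held the PA-only region, at chr7:119513022-119513425, 13042 bp upstream of its start. It stood low in both lists, at 98.1% in PA 1 and 87.5% in PA 2, and its centres lay 4 bp apart. The nearest WT peak was 8364 bp away. With every list held to 25683 lines the region was no longer called in PA 2, so no PA-only region was left. Closer to the gene, chr7:119521789-119522231, 4255 bp upstream of the start, was called at 32.7% of the list in PA 1, 37.3% in WT 1 and 28.3% in WT 2, and was missing from PA 2. PA 2 alone had a peak over the start itself (chr7:119526014-119526413), at 26.6% of its list. The start and the upstream region of Acsm5 were thus called in different libraries, with PA 1 alike to the WT libraries at both. Of the 6 Acsm5 regions 3 were called in PA 2 alone.

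Glyat transfers acyl groups from acyl-CoA to glycine and forms hippurate in liver mitochondria. It had no peak within 1 kb of an end in any library, as had 48.3% of protein-coding genes. Inside the gene, chr19:12638009-12638424, 4908 bp downstream of the start, was called in PA 1 at 61.4% and PA 2 at 59.6% of the lists, against 56.8% in WT 1 and no call in WT 2. The regions of its window called in all 4 libraries, nearest to Fam111a and Gm4952, stood low, between 78.7% and 94.9% of the lists. Keg1, a relative of Glyat at the edge of the window, was called over its start in PA 2 and WT 2, the same pair of libraries as the Acsm1 start.

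Acot12 hydrolyses acetyl-CoA in the cytosol, against the direction of Acss2. Its start (chr13:91741225-91741658, centred 80 bp upstream) stood 8.07% down the list in PA 1 and 5.17% in PA 2, against 5.22% in WT 1 and 8.42% in WT 2. Further regions inside the gene, 8606 and 24202 bp downstream of the start, were also called in all 4 libraries. Outside Acot12 on the side of its start, chr13:91702339-91702769, which lies inside Ssbp2 at 3406 bp from its end, and chr13:91723096-91723520 were called in both PA libraries and WT 1 and were missing from WT 2. Without WT 1 they would count as PA-only.

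Crat, carnitine acetyltransferase, exchanges acetyl and propionyl groups between CoA and carnitine. The region nearest to its upper end (chr2:30415280-30415762), 255 bp from that end, was called in every library. Its place was 11.6% in PA 1 and 5.31% in PA 2, against 4.06% in WT 1 and 3.12% in WT 2. The same region lies within 1 kb of an end of Ptpa as annotated, so the call cannot be given to either gene alone. A region inside Crat (chr2:30409454-30409856) was called in PA 1 at 40.9% and WT 1 at 44.0% of the lists and in neither PA 2 nor WT 2. The window is gene-rich, and starts of Miga2 and Dolpp1 lay under regions called in all 4 libraries.

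Slc22a5 encodes OCTN2, the sodium-dependent transporter that brings carnitine into cells. Its start (chr11:53891619-53892082, centred 148 bp upstream) was the highest in the lists among the 53 regions in every library. It stood at 2.21% in PA 1 and 2.13% in PA 2, against 1.99% in WT 1 and 1.51% in WT 2. All 4 regions of the window were called in all 4 libraries, and Slc22a5 was the nearest gene for each. Those upstream, chr11:53904170-53904624 and chr11:53910948-53911424, lay 12694 and 19483 bp from the start.

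**Figure D4:**
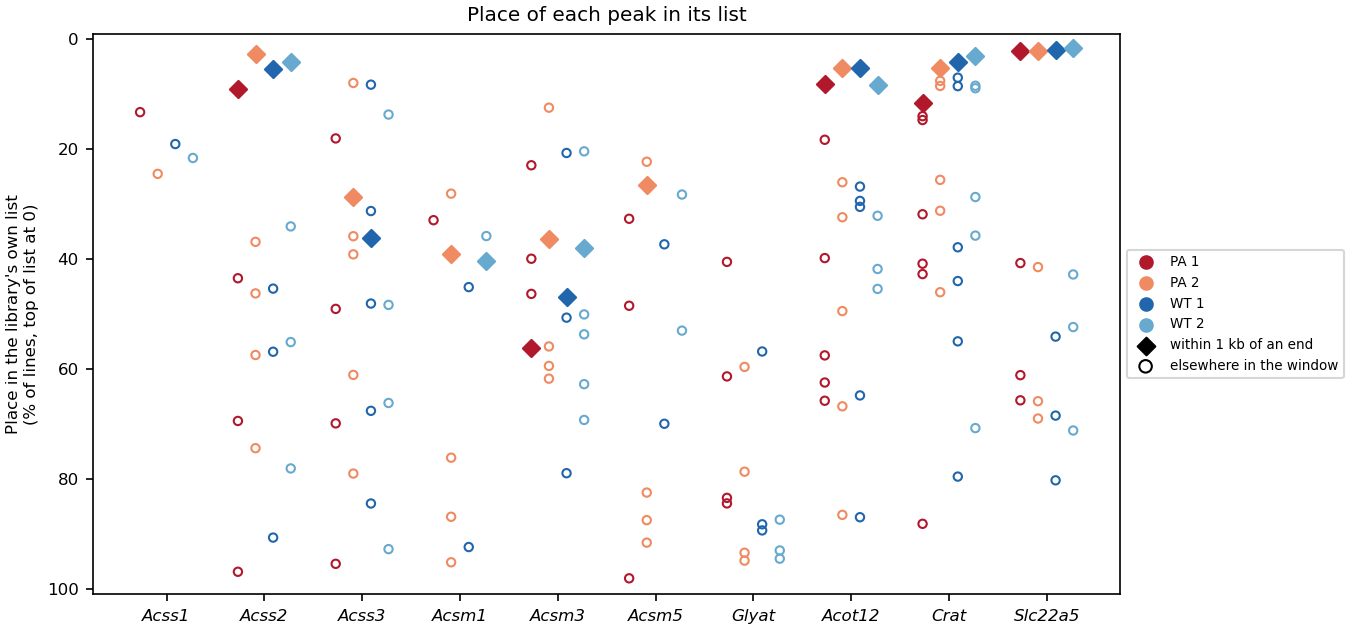
Place of each peak in its own library's list, as a percentage of lines with the top of the list at 0, for the 10 genes; diamonds are regions within 1 kb of an end of the gene, open circles the others, and colours the libraries. Peaks at the ends of Slc22a5, Acss2, Acot12 and Crat stand between 1.51% and 11.6%, whereas those of Acsm3, Acsm1, Acsm5 and Acss3 stand between 26.6% and 56.2%.

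Regions called in every library stood higher in the lists, at these genes as elsewhere. The median place, averaged over the libraries that called a region, was 39.0% for the 28 regions in all 4 libraries and 71.8% for the 10 in 1 library. Over the whole series these values were 36.4% and 85.8%. Centres of the 28 regions differed between libraries by a median of 42.5 bp (1 to 451), against 43 bp (0 to 687) over all 17581 such regions. Of the 28 regions, 10 lay over an annotated start of a protein-coding gene, 4 of them the gene's own among the 10. Of the 25 regions called in fewer libraries, 3 did, at Acsm1, Acsm5 and Keg1. Starts under regions were not counted over the whole series, so these counts describe the 53 regions alone. A member was the nearest gene for 24 of the 53 regions, and the other 29 were nearer to another gene or more than 50 kb from any gene end. Distance was taken to gene ends and not to gene bodies, so the 29 include regions that lie inside Acss3 and Acsm3.

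Other genes of the pathway were counted in lists drawn up by role. In 4 lists of other acyl-CoA synthetases, carnitine genes, glycine and taurine conjugation genes and thioesterases, 18 of 35 genes (51.4%) had a peak within 1 kb of an end in all 4 libraries, and 12 had one in none. Over all protein-coding genes these shares were 41.3% and 48.3%. Carnitine genes did so in 6 of 9 cases, among them Cpt2, which hands acyl groups back to CoA inside mitochondria, Slc25a20, the carnitine-acylcarnitine carrier, and Crot, the peroxisomal acyltransferase. For Cpt1a, the outer-membrane gate of long-chain oxidation, the call was in PA 2 and WT 1. The other synthetases did so in 7 of 11 cases, with Acsl1 and Slc27a5 called and Acsl5 called in PA 2 alone. For thioesterases it was 5 of 10, with Acot2 and Acot13. Glycine and taurine conjugation had 0 of 5. Baat, which conjugates bile acids, Gm4952 and Glyatl3 had no such peak in any library, Keg1 had one in PA 2 and WT 2, and Shmt2, which makes glycine in mitochondria, in WT 1 and WT 2. Shmt2 was thus called in both WT libraries alone, as were 0.476% of protein-coding genes.

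Of 77 regions nearest to the 35 pathway genes, 3 (3.90%) were PA-only and 0 WT-only. Over all regions 3.38% were PA-only and 1.98% WT-only, so the count lies near that of the series and the 3 loci are given for their position alone. They lay 6169 bp from an end of Acsl1 (chr8:46529472-46529882), 12389 bp from Slc27a2 (chr2:126575393-126575854) and 17442 bp from Slc22a4 (chr11:54012132-54012598). They stood 65.6%, 75.9% and 87.9% of the way down the PA 1 list. In PA 2 they stood at 59.8%, 56.9% and 80.3%. Acsl1 activates long-chain fatty acids, Slc27a2 is a fatty acid transporter with synthetase activity, and Slc22a4 is the transporter OCTN1, a relative of Slc22a5.

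Cell type markers give little check of the tissue here, since many genes have a peak near an end. Of 8 hepatocyte markers 6 had a peak near an end in PA 1 and 6 in PA 2, against 6 in WT 1 and 5 in WT 2. Over all protein-coding genes the share was 46.2% to 47.0% per library, as above. In all 4 libraries it was 4 of 8 hepatocyte markers, against 41.3% of protein-coding genes, with Alb called near an end in PA 1 alone and Apoa1 in no library. Of 33 markers of other liver and blood cells, 8 had one in PA 1 and 9 in PA 2, against 7 in WT 1 and 6 in WT 2. Of the 33, 4 had one in all 4 libraries and 21 in none, against 41.3% and 48.3% of protein-coding genes. The 4 were Kdr and Tie1 of endothelial cells, Reln of stellate cells and Tcf7 of lymphocytes. Among the 21 were Clec4f of Kupffer cells, Krt19 and Krt7 of bile ducts, Cd3e of T cells and S100a9 of neutrophils. The Kupffer cell markers had no common pattern. Adgre1 was called near an end in PA 1 and PA 2 alone, C1qb in WT 1 and WT 2 alone, and Cd5l in PA 2 and WT 1. Clec4f, Csf1r and C1qa had no peak near an end in any library. Over all protein-coding genes 0.661% were PA-only and 0.476% WT-only by this measure. In bulk tissue, a change in the share of a cell type and a change within its cells cannot be told apart, and the part of other cells in the calls above was not tested.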

How the data were processed

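ATAC-seq peak lists of 4 mouse liver libraries, 2 PA and 2 WT, were used as deposited by the authors, 1 list per library with chromosome, start and end and no measured value. The submitters' processing notes name bedtools 2.31.0, HOMER 4.10, Bowtie2 2.5.1, cutadapt 3.5, SAMtools 1.17 and R 4.1.2, and the build GRCm38 (mm10). The sources used here do not give the peak caller, its threshold, read filters or any transposase shift. Peaks were 400 bp long save for 3 or 4 per list.

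Groups and replicate numbers came from the sample titles. Regions were compared by position in Python 3.11.15 with pandas 2.3.3, against RefSeq genes and promoters of GRCm38.p6. All 10 genes matched by symbol. PA-only means a call in PA 1 and PA 2 with none in WT 1 or WT 2, and WT-only the reverse. Place in a list was used for description and alternatives. Merging, calling and distances were tested on simulated peaks. The genes named are the 10 members, pathway genes with a restricted region, neighbours with a region at an end inside a window, and examples from the lists, which were picked after their values were seen. The members and lists were chosen with earlier results of these data known. With 2 libraries per genotype, shares of regions describe these libraries and were not tested.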

Additional observations from a re-analysis of the deposited data

How the results depend on the processing

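The 28 regions called in all 4 libraries became 15 within 10 kb of a gene end, 12 when the nearest gene had to be one of the 10, and 14 in the first 50% of each list; each setting admits fewer regions by construction. They were 27 with a 200 bp overlap, where the Ncoa6 region dropped out, and 27 with lists of equal length. PA-only regions numbered 0 within 10 kb and 0 with lists of equal length. The first 50% of each list again gave 1, but a different one, called by WT further down (chr7:119490467-119490875). Leaving out each library in turn gave 28 to 32 regions in all remaining libraries, 1 to 8 PA-only and 0 to 2 WT-only regions, since the condition is looser with fewer libraries. The highest PA-only count came without PA 1. Without PA 2 there were 3 PA-only and 2 WT-only regions. Without WT 1 there were 5 PA-only and 1 WT-only, and without WT 2 the counts were those of the full set, 1 and 0. The difference in regions per library, PA minus WT, stayed above 0 in all alternatives, between 0.5 and 9.5 with a library left out. No setting could pass a test, since 0.333 is the smallest p that 2 against 2 libraries can give. In the first 50% of each list the difference was 3.5 (exact permutation test, p = 0.333). There PA 1 had 23 peaks and PA 2 had 26, against 21 each in WT 1 and WT 2, so the groups did not overlap in that setting. With a replicate block the difference over the full lists was 5 (exact sign flips of the pairs, p = 1). The correlation of deviations of same-numbered libraries was -0.00688 over all regions and 0.182 over the 53 regions; with only 2 pairs and no label that ties them, the numbers are not taken as pairs. The count of genes called near an end throughout stayed between 4 and 5. With annotated starts alone it was 4, but only 8 of the 10 genes had one, and Crat was not among them. It was also 4 with the peak over the end itself, and in the first 50% of each list, where Acsm3 fell out in PA 1. Read depth is unknown and limits all calls.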
